A study of Mus musculus with 90 samples.

Results

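Livers of obese mice were compared with livers of lean mice after a meal. The comparison takes the 3 fed obese and the 3 fed lean libraries, which are 6 of the 54 RNA libraries and of the 90 samples of the study, and it covers all genes of the expression table. Of 24312 gene symbols, 11434 averaged 0.5 RPKM or more across the 12 libraries of the obesity experiment and were tested. RPKM gives the reads of a transcript per kilobase of its length and per unit of library depth. The question asked of these samples was how diet-induced obesity alters hepatic gene expression after feeding.

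All mice of the obesity experiment were wild-type C57BL/6 males, and each library held poly(A) RNA from the liver of a single mouse. The obese mice (labelled DIO) were given high-fat diet (HFD) from 5 weeks of age, ad libitum for 10 weeks, and the lean mice were given chow for 10 weeks. Both were then kept for 4 days on night-restricted feeding (NRF), in which food is present in the dark phase only. Livers were taken at ZT14, in the dark phase, either after food had been given (fed) or from mice kept without it (unfed). HFD and obesity came together in 1 group and cannot be told apart, and the food offered as the meal to the obese mice is not given in the sources used here.

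Liver turns surplus carbohydrate into fatty acids after a meal and burns fatty acids between meals. Transcription of the genes of fatty acid and cholesterol synthesis depends on sterol regulatory element-binding proteins (SREBPs), membrane-bound factors that INSIG proteins hold back in the endoplasmic reticulum. Genes of fatty acid oxidation and ketone body synthesis depend on PPARα, a nuclear receptor that responds to fatty acids. Glucocorticoid receptor (GR) and FOXO1, which insulin keeps out of the nucleus, drive many genes of the unfed state.

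The libraries held liver. The 9 hepatocyte markers summed to between 60205 and 63799 RPKM in the fed lean mice and to between 49006 and 51808 in the fed obese mice, so that the groups did not overlap, and 4 of the 9 had a log2 fold change above 0 and 5 below, with 1 called in each direction with the fed groups alone. Albumin (Alb) was at 39736, 43784, and 42442 RPKM in the lean and 31126, 33116, and 31843 in the obese. Alb was not called, at a log2 fold change of -0.39 ± 0.16 (SE) and an adjusted p of 0.205, or 0.0632 with the fed groups alone. Summed markers of stellate cells and fibroblasts lay between 48.7 and 65.5 RPKM in the lean and between 69.0 and 78.2 in the obese, those of macrophages between 99.2 and 123.4 and between 87.8 and 161, and 0 of 8 neutrophil markers and 0 of 4 muscle markers reached the filter. The part of cell composition in the results was not tested, and in whole liver fewer cells of a type and less RNA per cell cannot be told apart. Relative depth was read from transcripts at 0 in most of the 12 libraries, as the most common ratio between their values in fed lean replicate 1 and in another library. It rested on 27 to 107 transcripts a library. It put the depth of fed obese replicate 1 at 3.29 times that of fed lean replicate 1, and the other libraries at 0.893 to 1.44 times.

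Diet differences were fitted in 2 ways with limma on log2(RPKM + 0.5), and all log2 fold changes given here are on that scale. The first fit held the 4 groups of the obesity experiment, which then shared 1 estimate of the spread, and the second held the fed groups alone. The distinction matters because unfed obese replicate 1 stood apart from its group. Scd1, for example, was at 2668 RPKM there and at 321 and 163 in the other unfed obese mice, and of the 12 weights that limma estimated for the libraries that of unfed obese replicate 1 was lowest, at 0.307. Its spread entered the first fit but not the fed values. A gene was called at a Benjamini-Hochberg adjusted p under 0.05 over all 11434 genes, and in what follows an adjusted p or an SE is that of the first fit unless the fed groups alone are named for it. With 3 mice against 3, no exact permutation test can give a two-sided p below 0.1.

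In the fit of 4 groups, 33 genes were higher in fed obese than in fed lean livers, 0.289% of all tested, and 24 were lower, 0.210%. With the fed groups alone, 380 were higher (3.32%) and 341 lower (2.98%), and without unfed obese replicate 1 in the fit of 4 groups 316 were higher (2.76%) and 291 lower (2.55%). All 57 genes of the first fit were also called in both of these and with library weights estimated by limma (519 higher, 4.54%, and 440 lower, 3.85%), and in none of the 57 did the fed groups overlap. Without fed obese replicate 1, fed lean replicate 1, or fed lean replicate 3, limma called 0 genes in either direction in the fit of 4 groups, with 884 to 911 higher and 717 to 831 lower at an unadjusted p under 0.05, and without another fed library 1 to 6 were called higher and 0 to 4 lower. With the fed groups alone, leaving out 1 library left 93 to 181 higher and 98 to 233 lower. Of all tested genes, 2029 (17.7%) were higher and 1705 (14.9%) lower with no overlap between the groups. Over all genes the median log2 fold change was 0.011.

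**Figure D1:**
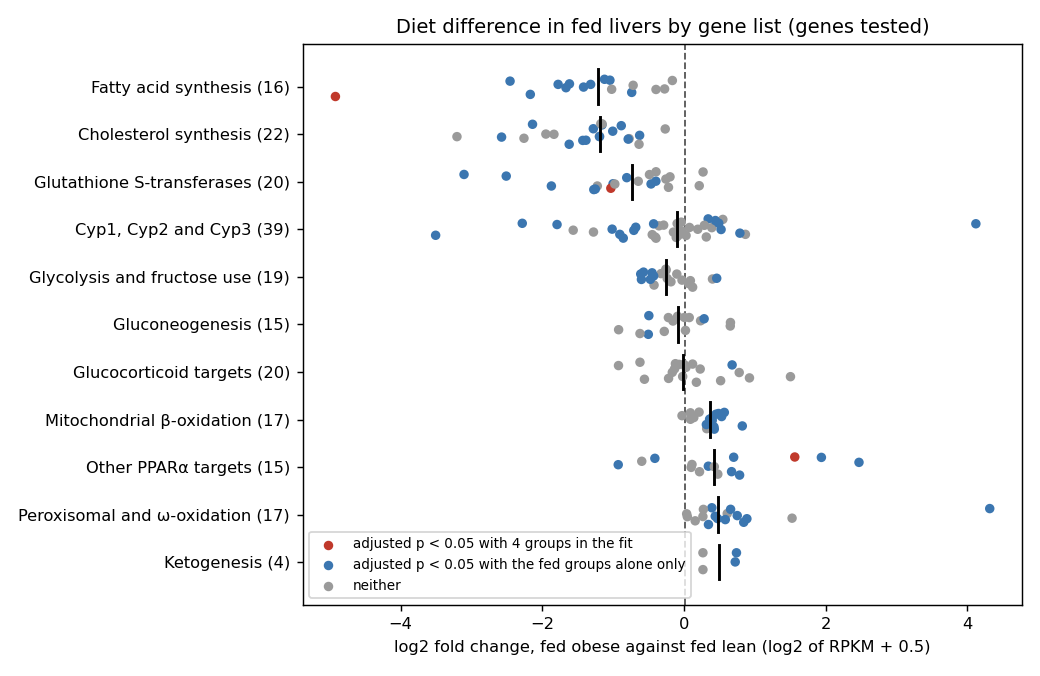
Log2 fold change of fed obese against fed lean livers for each tested gene of 11 gene lists, with the number of genes in parentheses. Each point is a gene, short vertical lines mark the list medians and the dashed line that of all genes, red points are called in the fit of 4 groups, blue points with the fed groups alone only, and gray points in neither. All points of the fatty acid and cholesterol synthesis lists lie below 0, and most points of the oxidation lists lie above it.

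Fatty acid synthesis held the gene with the largest fall. Scd1, the stearoyl-CoA desaturase that makes monounsaturated fatty acids (chromosome 19, 44468941 to 44482199 on the minus strand in mm9), was at 1231, 1512, and 1388 RPKM in the fed lean mice and at 32.7, 40.6, and 67.7 in the fed obese mice. The lean values lie together and far above all obese values. Mean expression was 29.3 times higher in the lean mice, and the log2 fold change was -4.92 ± 0.82 (SE, n = 3 mice a group; adjusted p = 0.0351, and 0.00113 with the fed groups alone).

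Other enzymes of the pathway were called with the fed groups alone only. Fasn, the fatty acid synthase, was at 97.3, 77.8, and 86.0 RPKM in the lean and 29.1, 31.9, and 23.5 in the obese. Elovl6, which elongates the product of fatty acid synthase, was at 52.6, 60.6, and 47.1 RPKM and at 8.79, 11.6, and 7.86. Neither gene's groups overlap, and the log2 fold changes were -1.62 ± 0.62 for Fasn (adjusted p = 0.187, and 0.00291 with the fed groups alone) and -2.45 ± 0.57 for Elovl6 (0.081 and 0.00154). Acly, the ATP-citrate lyase that supplies cytosolic acetyl-CoA, showed the tightest obese group, at 35.0, 35.1, and 34.2 RPKM, with 75.2, 75.4, and 66.5 in the lean (log2 fold change -1.04 ± 0.40, adjusted p = 0.191, and 0.00174 with the fed groups alone). Both acetyl-CoA carboxylases, which make malonyl-CoA, were lower with the fed groups alone, Acacb by 3.66 times and Acaca by 2.45 times, and so was Aacs, the acetoacetyl-CoA synthetase, by 4.87 times (log2 fold change -2.17 ± 0.46, adjusted p = 0.0685, and 0.0234 with the fed groups alone).

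Of the 16 genes of fatty acid synthesis tested, 1 was called lower in the fit of 4 groups and 11 with the fed groups alone, and 0 were called higher in either. All 16 log2 fold changes were below 0, with a median of -1.22, and in 14 the groups did not overlap, against the 14.9% of all genes. With 1 fed library left out of the fit of the fed groups alone, 9 to 12 were called lower. Over all genes 2.98% were lower with the fed groups alone and no library left out. Mid1ip1, which activates acetyl-CoA carboxylase, was among the 11, at 57.0, 48.9, and 65.1 RPKM in the lean and 23.6, 25.8, and 18.5 in the obese (log2 fold change -1.32 ± 0.26, adjusted p = 0.0569, and 0.00622 with the fed groups alone), and 25.5% of its exon bases lie opposite exons of another gene. In unfed livers, which share no mice with the fed ones, the median of the list was -0.24 and 0 of 16 were called, or -0.61 with 7 lower and 1 higher without unfed obese replicate 1. Without that library 3.75% of all genes were called lower and 7.95% higher in unfed livers.

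Elongases differed in direction. Elovl1, which elongates very long-chain fatty acids, was at 19.6, 24.98, and 27.9 RPKM in fed lean and 10.8, 13.1, and 10.3 in fed obese livers, and fell by 1.05 ± 0.14 on the log2 scale (adjusted p = 0.0238, and 0.0123 with the fed groups alone). Elovl3, an elongase of saturated and monounsaturated fatty acids that is more abundant in male liver (chromosome 19, 46206387 to 46210184 in mm9), went the other way, at 24.1, 26.2, and 35.1 RPKM in the lean and 165, 188, and 303 in the obese. Every obese value is above every lean value, the means differ 7.69 times, and the log2 fold change was 2.89 ± 0.52 (adjusted p = 0.0457, and 0.00291 with the fed groups alone). Pitx3, a transcription factor gene beside Elovl3, was also called, at 0.0770, 0.241, and 0.193 RPKM in the lean and 2.23, 2.31, and 3.62 in the obese. Of its exon bases 0.6% lie opposite those of Elovl3, and of the exon bases of Elovl3 0.5% lie opposite those of Pitx3. Reads of the pair cannot be told apart there.

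In cholesterol synthesis every log2 fold change was below 0, and 1 obese mouse stood apart from the other two. Sqle, the squalene epoxidase, was at 42.6, 37.0, and 32.6 RPKM in the fed lean mice and at 1.52, 16.0, and 1.55 in the fed obese mice. Fdps, the farnesyl diphosphate synthase, was at 81.2, 79.6, and 74.8 RPKM in the lean and 10.3, 26.9, and 7.42 in the obese. Nsdhl, a sterol dehydrogenase late in the pathway, was at 32.3, 30.7, and 28.8 RPKM and at 4.97, 13.5, and 4.10. In all of these the groups do not overlap and the highest obese value is that of replicate 2. The log2 fold changes were -3.20 ± 0.99 for Sqle (adjusted p = 0.13, and 0.0507 with the fed groups alone), -2.57 ± 0.77 for Fdps (0.124 and 0.0171), and -2.14 ± 0.57 for Nsdhl (0.105 and 0.0235).

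All 22 genes of cholesterol synthesis and uptake tested had a log2 fold change below 0, with a median of -1.19 and a range of -3.20 to -0.26. In 21 the groups did not overlap, where 14.9% of all genes were lower without overlap. In the fit of 4 groups limma called 0 of the 22, with 19 lower at an unadjusted p under 0.05, against 9.47% of all genes. With the fed groups alone 12 were called lower, without unfed obese replicate 1 in the fit of 4 groups 18, and without fed obese replicate 2 in the fit of the fed groups alone 20. Leaving out another fed library left 1 to 6, the lowest number without fed obese replicate 1. Over all genes 2.98% were lower with the fed groups alone and no library left out. In unfed livers the median of the list was -0.48 and 0 of 22 were called. Fdps was at 123.7 RPKM in unfed obese replicate 1 and at 13.8 and 12.2 in the other unfed obese mice. Without that library the unfed median of the list was -0.97 and 8 of the 22 were called lower, where 3.75% of all genes were.

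**Figure D2:**
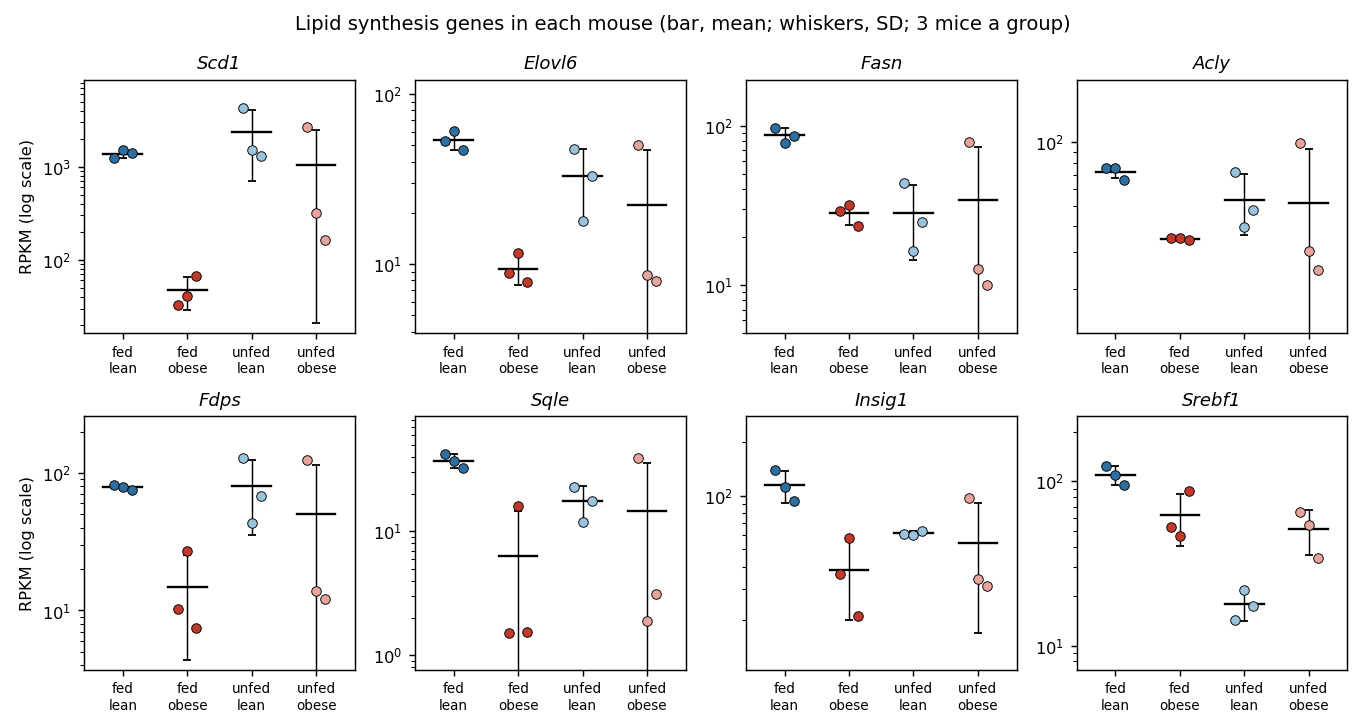
RPKM on log axes for 8 genes of lipid synthesis and its control in the 4 groups of the obesity experiment. Points are single mice, horizontal bars the mean, and whiskers the SD of 3 mice, which run past the lower edge where the SD exceeds or nearly equals the mean. All fed obese points of Scd1, Elovl6, Fasn, Acly, Fdps, Sqle, Insig1, and Srebf1 lie below all fed lean points, and unfed obese replicate 1, the leftmost point of its group, lies high in all 8.

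The 2 INSIG genes moved in opposite directions. Insig1, an SREBP target (chromosome 5, 28397952 to 28405201 in mm9), was at 140, 112, and 93.4 RPKM in the fed lean and 36.5, 57.9, and 21.0 in the fed obese mice. Insig2, whose liver transcript rises in fasting (chromosome 1, 123200930 to 123229166), was at 31.2, 27.3, and 36.1 RPKM in the lean and 87.3, 85.5, and 112 in the obese. The groups do not overlap for either gene. With the fed groups alone Insig1 fell by 1.66 ± 0.34 on the log2 scale (adjusted p = 0.0343) and Insig2 rose by 1.57 ± 0.14 (adjusted p = 0.00301). In the fit of 4 groups neither was called, with an SE of 0.42 for Insig1 and 0.43 for Insig2 (adjusted p = 0.0907 and 0.11).

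The factors themselves differed less. Srebf1 was at 124, 109, and 94.8 RPKM in the fed lean and 53.1, 46.5, and 87.3 in the fed obese mice, without overlap, and was not called (log2 fold change -0.85 ± 0.27, adjusted p = 0.133, and 0.0678 with the fed groups alone). Its diet difference depended on the meal: in unfed mice it was at 14.2, 21.7, and 17.5 RPKM in the lean and 65.4, 54.2, and 34.3 in the obese, and the difference between the 2 diet differences was -2.33 ± 0.38 (log2, adjusted p = 0.023). Srebf2, which drives cholesterol synthesis, was at 12.02, 9.39, and 10.9 RPKM in the fed lean and 8.77, 11.9, and 8.29 in the fed obese mice, and Mlxipl, the carbohydrate-responsive factor ChREBP, at 66.2, 66.6, and 51.3 and at 91.9, 76.2, and 77.7. Neither was called, and the groups overlap for Srebf2 only.

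Promoter sequence is shown for Nsdhl and Fasn, from the 2 synthesis lists, whose tested members lay on the same side of 0, and for Insig1. CCAAT is the letter string bound by NF-Y, a factor that acts with SREBPs. The windows run from 250 bases before to 50 after the start of the gene (RefSeq, GRCm38.p6, both strands searched), and capitals mark CCAAT or its reverse complement ATTGG. They are shown for Nsdhl (chrX:72918271-72918570, plus strand), Fasn (chr11:120824498-120824797, minus strand), and Insig1 (chr5:28071162-28071461, plus strand).
Nsdhl: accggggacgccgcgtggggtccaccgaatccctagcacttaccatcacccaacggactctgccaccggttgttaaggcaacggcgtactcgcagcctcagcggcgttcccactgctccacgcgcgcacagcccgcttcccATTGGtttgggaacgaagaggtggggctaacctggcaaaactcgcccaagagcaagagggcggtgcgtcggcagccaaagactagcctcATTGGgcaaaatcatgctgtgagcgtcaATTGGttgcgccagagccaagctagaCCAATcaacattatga
Fasn: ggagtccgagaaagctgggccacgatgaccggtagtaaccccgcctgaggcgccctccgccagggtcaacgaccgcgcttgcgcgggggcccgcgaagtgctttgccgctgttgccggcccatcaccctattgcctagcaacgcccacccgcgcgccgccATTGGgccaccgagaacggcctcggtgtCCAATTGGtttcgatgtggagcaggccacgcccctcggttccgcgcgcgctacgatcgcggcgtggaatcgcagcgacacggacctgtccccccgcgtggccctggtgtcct
Insig1: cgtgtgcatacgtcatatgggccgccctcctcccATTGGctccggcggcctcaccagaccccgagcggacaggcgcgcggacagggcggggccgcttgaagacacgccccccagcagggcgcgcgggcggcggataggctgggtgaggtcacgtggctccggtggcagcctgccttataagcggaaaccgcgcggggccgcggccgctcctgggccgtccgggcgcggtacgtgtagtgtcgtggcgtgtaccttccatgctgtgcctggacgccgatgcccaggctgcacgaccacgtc
CCAAT on either strand was present in the windows of 13 of 14 cholesterol genes that matched (92.9%) and of 9 of 14 fatty acid synthesis genes (64.3%), against 41.1% of all 27025 genes with a window. It was present in 50.8% of the genes that were lower and 43.4% of those that were higher with the fed groups alone. The SRE-like string TCACNCCA was found in 1 of 14 genes of each list, against 4.97% of all genes, and says nothing of sites outside these windows.

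Genes of fatty acid oxidation were higher in the fed obese livers. Ppara itself was at 38.2, 35.4, and 39.4 RPKM in the fed lean and 68.3, 61.2, and 52.4 in the fed obese mice, without overlap, and was called with the fed groups alone only (log2 fold change 0.67 ± 0.19, adjusted p = 0.112, and 0.0166 with the fed groups alone). Angptl4, a PPARα target that inhibits lipoprotein lipase (chromosome 17, 33910695 to 33918520 in mm9), was at 19.1, 20.7, and 16.0 RPKM in the lean and 69.2, 56.6, and 44.0 in the obese. The groups do not overlap, and Angptl4 rose 3.04 times in both fits (log2 fold change 1.56 ± 0.22, adjusted p = 0.0238, and 0.00622 with the fed groups alone).

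Larger fold differences came with larger spread. Cyp4a14, a fatty acid ω-hydroxylase (chromosome 4, 115158805 to 115168747 in mm9), was at 11.01, 2.63, and 14.9 RPKM in the lean and 342, 70.0, and 181 in the obese. Vnn1, the pantetheinase vanin-1, was at 7.06, 7.34, and 3.37 RPKM and at 32.4, 26.2, and 44.1. Fgf21, the fasting hormone, was at 0.112, 0.501, and 0.562 RPKM and at 3.65, 5.02, and 1.11. All obese values exceed all lean values in these, and all were called with the fed groups alone, at log2 fold changes of 4.32 ± 0.99 for Cyp4a14 (adjusted p = 0.0776, and 0.0201 with the fed groups alone), 2.47 ± 0.75 for Vnn1 (0.128 and 0.00808), and 1.94 ± 0.58 for Fgf21 (0.124 and 0.0491). Cyp4a14 shares near-identical relatives in the Cyp4a cluster, so its reads may have been split among them.

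More abundant enzymes rose by less. Acsl1, which activates long-chain fatty acids, was at 394, 426, and 334 RPKM in the fed lean and 643, 702, and 689 in the fed obese mice. The groups are apart, and with the fed groups alone Acsl1 rose by 1.76 times (log2 fold change 0.82 with an SE of 0.0988 and an adjusted p of 0.00808, and an SE of 0.37 and an adjusted p of 0.243 in the fit of 4 groups). Cpt1a, the entry step of mitochondrial oxidation, rose by 1.35 times, Ehhadh, an enzyme of peroxisomal oxidation, by 1.37 times, and Crot, which exports shortened acyl groups from peroxisomes, by 1.79 times, all with the fed groups alone. Acox2, the peroxisomal oxidase of branched and bile acid side chains, is not in the lists counted here and rose in both fits, from 43.2, 37.5, and 42.4 RPKM to 77.1, 74.2, and 86.2 (adjusted p = 0.0351, and 0.00335 with the fed groups alone).

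Of 17 genes of mitochondrial β-oxidation tested, 11 were called higher with the fed groups alone and 0 lower, with a median log2 fold change of 0.37, and of 17 genes of peroxisomal and ω-oxidation 10 were higher and 0 lower, with a median of 0.47. Limma called 0 of either list in the fit of 4 groups, with 8 of each higher at an unadjusted p under 0.05, against 10.4% of all genes. Without 1 fed library, 3 to 6 of the mitochondrial and 3 to 7 of the peroxisomal genes were called with the fed groups alone, with 3 in both lists without fed obese replicate 1. Of 15 other PPARα targets, 7 were higher and 2 lower with the fed groups alone, and 2 of 4 genes of ketogenesis were higher. Over all genes 3.32% were higher and 2.98% lower with the fed groups alone. Acot1, a cytosolic acyl-CoA thioesterase and PPARα target, was at 10.6, 8.33, and 8.83 RPKM in the lean and 31.1, 15.3, and 23.9 in the obese (log2 fold change 1.25 ± 0.54, adjusted p = 0.23, and 0.0299 with the fed groups alone), and Slc27a2, which imports and activates fatty acids, was 1.62 times higher (0.13 and 0.00808). Acaa2, the most abundant gene of the mitochondrial list, was at 601, 546, and 527 RPKM in the lean and 595, 575, and 612 in the obese, and its groups overlap. Plin2, which coats lipid droplets, was 1.77 times higher in the obese, at 178, 200, and 181 RPKM against 103, 107, and 106 (log2 fold change 0.82 ± 0.30, adjusted p = 0.176, and 0.00291 with the fed groups alone). Of 21 lipid droplet genes, 3 were called higher with the fed groups alone, Plin2 among them, and 1 to 3 were without 1 fed library. G0s2, which inhibits the lipase ATGL, overlapped between the groups at 119 to 281 RPKM in the lean and 263 to 404 in the obese.

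**Figure D3:**
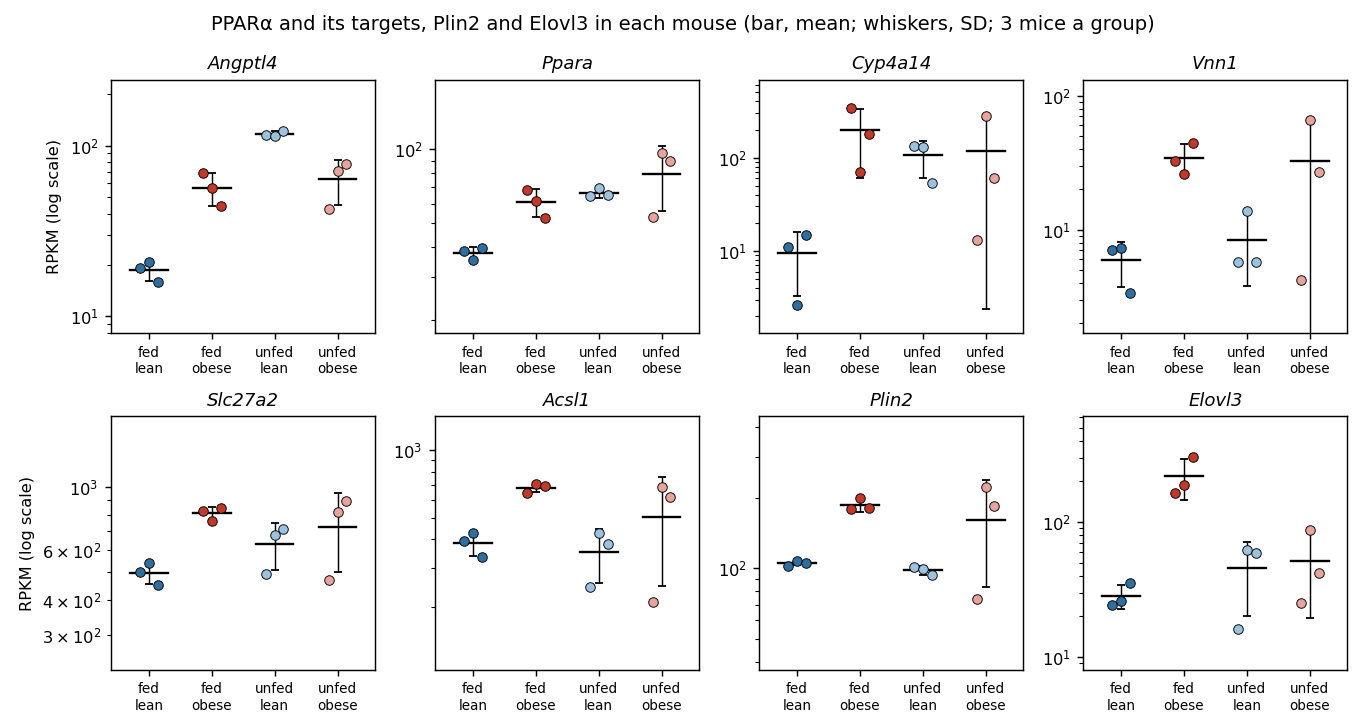
RPKM on log axes for Ppara, 5 of its targets, Plin2, and Elovl3 in the 4 groups of the obesity experiment. Points are single mice, horizontal bars the mean, and whiskers the SD of 3 mice, cut at the lower edge where they run past it. The fed obese points lie above the fed lean points in all 8 genes, and unfed obese replicate 1, the leftmost point of its group, is the lowest of its group in all 8.

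Genes of detoxification differed in both directions. Cyp3a11, a major drug-oxidizing P450 of mouse liver (chromosome 5, 146666002 to 146691540 in mm9), was at 870, 1124, and 2185 RPKM in the fed lean and 86.3, 80.9, and 206 in the fed obese mice. The highest obese value is below the lowest lean value, the lean mean was 11.2 times the obese one, and the log2 fold change was -3.51 ± 0.86 (adjusted p = 0.0867, and 0.00922 with the fed groups alone). Cyp2a5, a coumarin hydroxylase, was 1.89 times lower (adjusted p = 0.081, and 0.0178 with the fed groups alone). Cyp2e1, the ethanol-inducible P450, went the other way, from 5074, 4502, and 4496 RPKM to 6368, 6623, and 6763 (adjusted p = 0.22, and 0.0231 with the fed groups alone). Cyp2b9, which is more abundant in female liver, was at 0.592, 0.0760, and 0.449 RPKM in the lean and at 7.92, 7.23, and 47.8 RPKM in the obese (log2 fold change 4.12, adjusted p = 0.173, and 0.0192 with the fed groups alone). Of 39 genes of the Cyp1, Cyp2, and Cyp3 families, 9 were lower and 6 higher with the fed groups alone, where 2.98% of all genes were lower and 3.32% higher. Without 1 fed library 3 to 7 were lower and 1 to 3 higher. The median was -0.10, and many members have close relatives among which reads may have been split.

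Glutathione S-transferases, which conjugate reactive compounds to glutathione, were called in 1 direction. Gstm6 was called in both fits, at 64.0, 71.4, and 90.1 RPKM in the fed lean and 36.5, 36.7, and 35.2 in the fed obese mice (log2 fold change -1.03 ± 0.19, adjusted p = 0.0493, and 0.00779 with the fed groups alone). Gstm3 was at 23.4, 32.7, and 105 RPKM in the lean and 4.96, 4.06, and 4.80 in the obese, and Gsta2 at 13.7, 12.3, and 20.02 and at 4.16, 1.29, and 1.94. The obese values of Gstm3 and Gstm6 lie close together below scattered lean values, and the log2 fold changes were -3.10 ± 0.71 for Gstm3 (adjusted p = 0.0776, and 0.0175 with the fed groups alone) and -2.51 ± 0.58 for Gsta2 (0.0804 and 0.0119). Of the exon bases of Gstm3, 5.9% overlap those of Gstm6 on the same strand, and 7.9% of those of Gstm6 overlap Gstm3 or Gm12494. Of the 20 genes tested, 10 were lower and 0 higher with the fed groups alone (5 to 10 lower without 1 fed library). Without overlap between groups 15 were lower and 2 higher, where 14.9% of all genes were lower and 17.7% higher. The median of the 20 was -0.73, against -0.27 in unfed livers, or -0.49 without unfed obese replicate 1. Of 14 targets of the antioxidant factor NRF2, 3 were lower with the fed groups alone, and 1 to 2 were without 1 fed library. Over all genes 2.98% were lower with the fed groups alone.

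**Figure D4:**
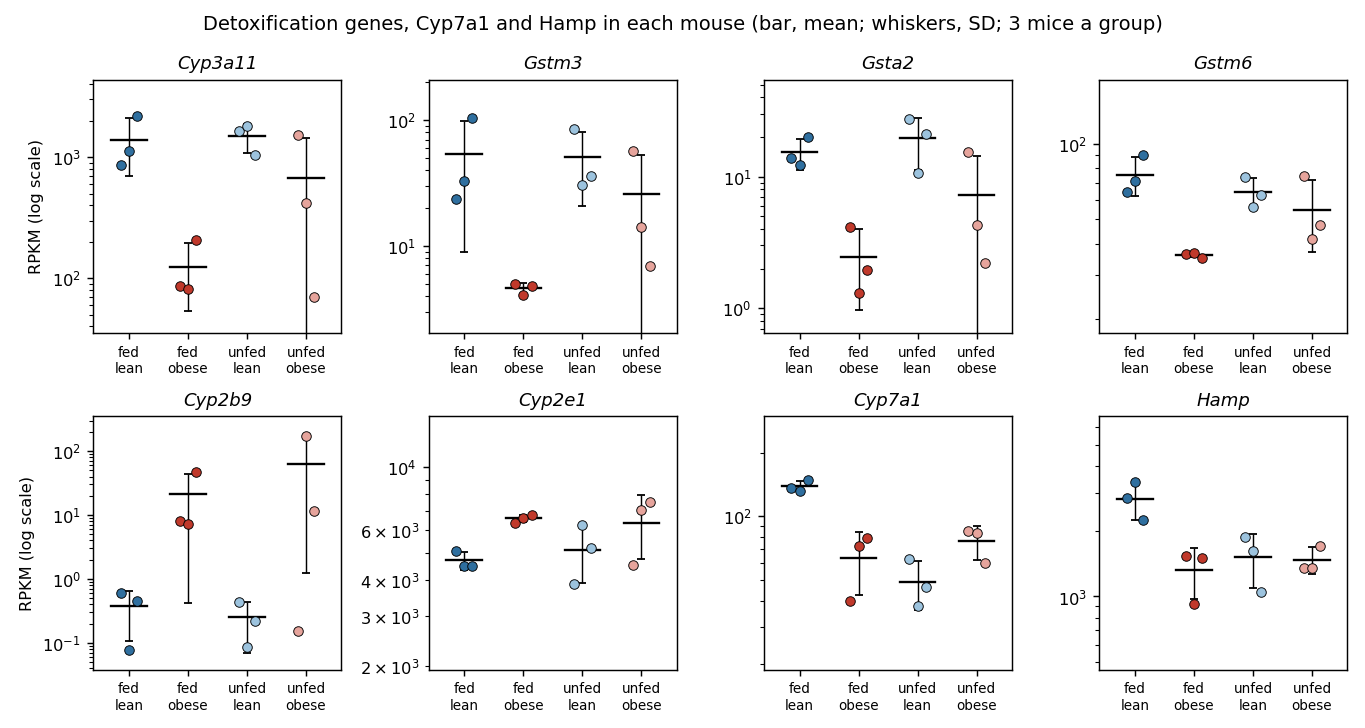
RPKM on log axes for 6 genes of detoxification, Cyp7a1, and Hamp in the 4 groups of the obesity experiment. Points are single mice, horizontal bars the mean, and whiskers the SD of 3 mice, cut at the lower edge where they run past it. The fed obese points lie below the fed lean points for Cyp3a11, Gstm3, Gsta2, Gstm6, Cyp7a1, and Hamp and above them for Cyp2b9 and Cyp2e1.

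Some genes of glucose use were lower. Pklr, the liver pyruvate kinase, was at 161, 164, and 149 RPKM in the fed lean and 107, 128, and 113 in the fed obese mice, with no overlap (log2 fold change -0.45 ± 0.32, adjusted p = 0.458, and 0.0276 with the fed groups alone), and some of its exon bases lie opposite exons of another gene. Of 19 genes of glycolysis and fructose use 6 were lower and 1 higher with the fed groups alone, with a median of -0.25. Over all genes 2.98% were lower and 3.32% higher in that fit. Without 1 fed library 0 to 3 of the 19 were lower and 0 to 1 higher. Tkt, the transketolase, was at 46.9, 43.4, and 43.1 RPKM in the lean and 23.3, 25.5, and 26.5 in the obese (adjusted p = 0.107, and 0.00335 with the fed groups alone), and Gys2, the liver glycogen synthase, at 170, 166, and 148 and at 111, 91.6, and 107 (0.0811 and 0.0148). Fbp1, a fructose bisphosphatase of gluconeogenesis, was 1.42 times lower with the fed groups alone.

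Pck1 and G6pc, both genes of gluconeogenesis, were not called in fed livers in the fit of 4 groups or with the fed groups alone. Pck1 was at 313, 637, and 356 RPKM in the lean and 712, 737, and 527 in the obese, which overlap (log2 fold change 0.65 ± 0.26, adjusted p = 0.2). G6pc was at 98.6, 150, and 97.1 RPKM in the lean and 194, 173, and 168 in the obese, which do not (0.66 ± 0.36, adjusted p = 0.332, and 0.0618 with the fed groups alone). Without unfed obese replicate 1 in the fit of 4 groups, G6pc was called higher, at an adjusted p of 0.0377. In unfed livers both were lower in the obese, Pck1 by 1.16 and G6pc by 1.91 on the log2 scale (adjusted p = 0.031 and 0.016), and for G6pc the diet difference depended on the meal (2.56 ± 0.50, adjusted p = 0.047).

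Of the glucocorticoid targets, which differed widely in unfed livers, 1 was called in the fed livers. Tat, the tyrosine aminotransferase, was at 497, 649, and 627 RPKM in the fed lean and 589, 520, and 522 in the fed obese mice, whereas the unfed mice were at 2455, 2328, and 2253 and at 599, 670, and 403. The fed groups overlap and the unfed groups do not, and the 2 diet differences themselves differed, by 1.99 ± 0.24 (log2, adjusted p = 0.0081). Igfbp1, the binding protein of insulin-like growth factors that insulin represses, was at 1.39, 4.31, and 3.26 RPKM and at 5.90, 4.38, and 1.48 in the fed groups, with overlap, and at 222 to 259 and 15.9 to 26.0 in the unfed (difference of the diet differences 3.93 ± 0.59, adjusted p = 0.017). Of 20 glucocorticoid targets, 1 was called higher with the fed groups alone, namely Klf9 (11.5, 14.3, and 9.69 against 21.8, 18.1, and 17.5 RPKM, adjusted p = 0.0414), and 0 lower, with a median of -0.01, against 10 lower and a median of -1.36 in the unfed livers (13 and -1.23 without unfed obese replicate 1). Of all genes in the unfed livers 1.69% were called lower, or 3.75% without unfed obese replicate 1. Limma called 0 of the 20 targets in the fit of 4 groups, with 2 higher and 1 lower at an unadjusted p under 0.05. At that threshold 10.4% of all genes were higher and 9.47% lower. Over all genes 3.32% were higher and 2.98% lower with the fed groups alone. Without 1 fed library 0 to 1 of the 20 were higher and 0 lower. Nr3c1, the gene of GR, was at 15.6 to 17.9 RPKM in the fed lean and 15.9 to 17.2 in the fed obese mice.

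Arrdc3, an α-arrestin, was at 35.0, 16.6, and 32.2 RPKM in the fed lean and 38.4, 37.2, and 13.6 in the fed obese mice, which overlap (log2 fold change 0.02 ± 0.40, not called), with 4.08 to 6.66 in the unfed lean and 25.7 to 47.8 in the unfed obese (test of the difference, adjusted p = 0.06). Insr, Irs1, and Irs2, which carry the insulin signal, and Pparg, a lipogenic nuclear receptor, were not called, with log2 fold changes of 0.27 ± 0.11, -0.05 ± 0.16, 0.16 ± 0.27, and -0.34 ± 0.27. Of 20 insulin and FOXO targets 0 were higher and 1 lower with the fed groups alone, where 3.32% of all genes were higher and 2.98% lower. Without 1 fed library 0 to 2 of the 20 were higher and 0 lower.

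Over all genes, 48 (0.420%) had a diet difference that was higher in the fed than in the unfed livers and 37 (0.324%) one that was lower. That test shares the fed libraries with the comparison of the fed groups. Mfsd2a, a transporter of lysophospholipids that fasting induces (chromosome 4, 122624093 to 122638431 in mm9), was at 21.2, 25.8, and 15.6 RPKM in the fed lean and 55.9, 64.3, and 70.7 in the fed obese mice, and at 122, 86.0, and 71.7 and at 28.3, 41.6, and 24.8 in the unfed. The obese mice were thus higher when fed and lower when unfed, without overlap in either state, at log2 fold changes of 1.61 ± 0.24 (adjusted p = 0.0292) and -1.55 ± 0.24 (0.0076). Them4, an acyl-CoA thioesterase, showed the same crossing, with 0.77 ± 0.09 when fed (adjusted p = 0.0196) and -0.53 ± 0.09 when unfed (0.013). Gadd45a, a stress-induced gene, crossed the other way, at 11.4, 7.56, and 7.32 RPKM in the fed lean and 3.03, 4.40, and 3.71 in the fed obese mice, and 19.1% of its exon bases lie opposite those of another gene.

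**Figure D5:**
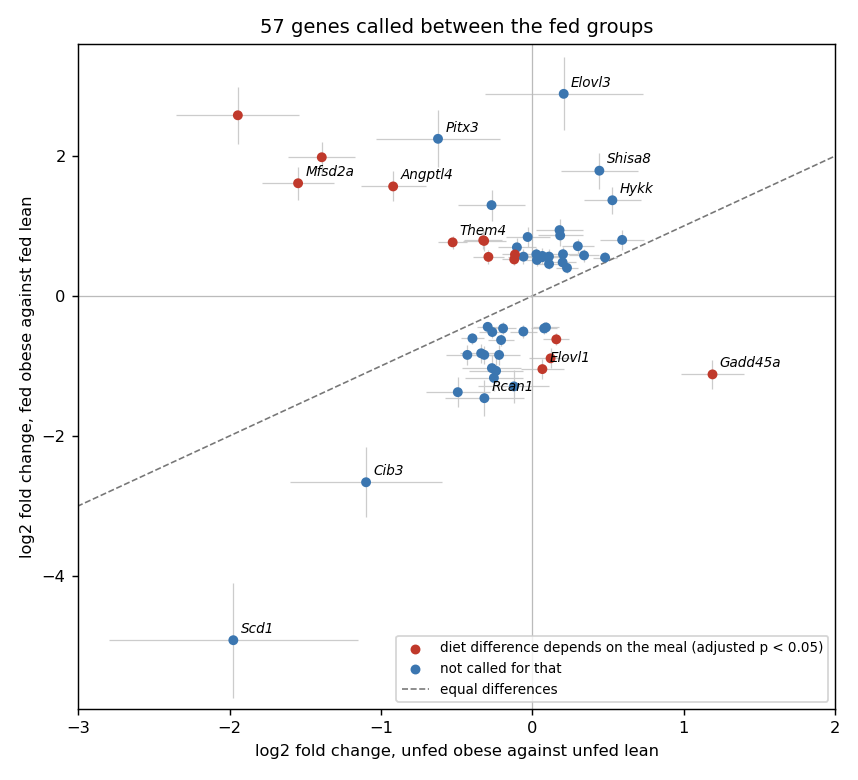
Log2 fold change of obese against lean livers in the fed state (vertical axis) and the unfed state (horizontal axis) for the 57 genes called between the fed groups in the fit of 4 groups. Each point is a gene with its SE in both directions, red marks genes whose diet difference depends on the meal, and the dashed line marks equal differences. Scd1 and Cib3 lie below 0 on both axes, though neither was called in the unfed state, and Mfsd2a and Angptl4 lie above 0 when fed and below it when unfed.

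Some of the fed differences were also called in unfed livers, and their number depended on unfed obese replicate 1. In the fit of 4 groups, of the 380 genes higher with the fed groups alone 28 were higher and 10 lower in unfed obese livers, and of the 341 lower genes 13 were lower and 5 higher, where over all tested genes 3.49% were higher and 1.69% lower. Without unfed obese replicate 1 the numbers were 133 higher and 12 lower of the 380, and 88 lower and 7 higher of the 341, where over all tested genes 7.95% were higher and 3.75% lower. The 592 genes called in unfed livers in all became 1338 without that library and 41 with the unfed groups alone. Across the 11434 genes the diet differences of the 2 states had a Pearson r of 0.279 and a Spearman rho of 0.259, given as a description because genes of the same libraries are not independent. Etnk2, an ethanolamine kinase, was called in both states, at 200, 192, and 199 RPKM in the fed lean and 127, 131, and 130 in the fed obese mice (log2 fold change -0.61 ± 0.07 when fed and -0.40 ± 0.07 when unfed, adjusted p = 0.0196 and 0.016).

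Differences were also called with the fed groups alone among bile acid, iron, and acute phase genes. Of 22 bile acid genes 4 were higher and 3 lower, and without 1 fed library 1 to 3 were higher and 1 to 2 lower, where 3.32% of all genes were higher and 2.98% lower. Cyp7a1, the rate-limiting enzyme of bile acid synthesis, was at 136, 131, and 148 RPKM in the fed lean and 39.7, 72.2, and 79.1 in the fed obese mice (log2 fold change -1.17 ± 0.25, adjusted p = 0.0687, and 0.0344 with the fed groups alone). Slco1a4, an organic anion importer, was 2.96 times lower with the fed groups alone, and Slc10a1, the bile acid importer and the most abundant gene of the list, was not called at -0.21 ± 0.17. Hamp, the iron hormone hepcidin, was at 2846, 3367, and 2237 RPKM in the lean and 1541, 921, and 1509 in the obese (-1.11 ± 0.25, adjusted p = 0.0776, and 0.036 with the fed groups alone). Among 31 acute phase genes 6 were higher and 2 lower with the fed groups alone, but without 1 fed library 0 to 5 were higher and 0 to 2 lower, with 0 higher without fed obese replicate 1 or 3. Hp, haptoglobin, was higher at 1944, 1904, and 2052 against 1371, 1175, and 1410 RPKM, and Orm1, an acid glycoprotein, was lower at 286, 455, and 470 against 678, 880, and 845.

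Of 17 clock genes, 3 were higher and 2 lower with the fed groups alone, where 3.32% of all genes were higher and 2.98% lower, but without 1 fed library 0 to 1 were higher and 0 lower. Among the 5 were Arntl, the partner of CLOCK, at 4.65, 4.55, and 5.02 RPKM against 2.05, 1.47, and 2.97 in the lean, and Dbp, an output gene, at 12.4, 10.4, and 7.70 against 15.7, 21.3, and 17.0. Sel1l, which takes part in degradation of endoplasmic reticulum proteins, rose in both fits, from 29.5, 35.6, and 27.3 RPKM to 40.3, 47.8, and 47.9 (log2 fold change 0.55 ± 0.10, adjusted p = 0.0493). Of 28 genes of the unfolded protein response 1 was higher in the fit of 4 groups, against 0.289% of all genes. With the fed groups alone 2 of the 28 were higher, against 3.32%, and 0 to 2 without 1 fed library. At an unadjusted p under 0.05 in the fit of 4 groups, 11 were higher and 1 lower. Herpud1, of the same list, was at 214, 300, and 173 RPKM in the lean and 370, 424, and 402 in the obese (0.83 ± 0.17, adjusted p = 0.0569, and 0.0435 with the fed groups alone). Asns, the asparagine synthetase, was at 3.71, 14.4, and 12.9 RPKM in the lean and 0.543, 1.96, and 0.494 in the obese (-2.79 ± 0.83, adjusted p = 0.122, and 0.031 with the fed groups alone). Of 32 interferon genes 0 were called in either fit, with 9 higher and 2 lower at an unadjusted p under 0.05. At that threshold 10.4% of all genes were higher and 9.47% lower.

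Small shifts ran through 2 large complexes. Of 77 ribosomal protein genes 70 had a log2 fold change below 0, with a median of -0.25, and 43 were lower without overlap of the groups. Of 73 respiratory chain genes 68 were below 0, with a median of -0.18, and 52 were lower without overlap. Of all genes, 14.9% were lower without overlap. With the fed groups alone 5 ribosomal and 8 respiratory genes were called, all lower, where 2.98% of all genes were, and without 1 fed library 1 to 5 and 0 to 4. In the fit of 4 groups limma called 0 of either list, with 29 and 26 lower at an unadjusted p under 0.05. At that threshold 9.47% of all genes were lower. Rpl4 was at 318, 312, and 305 RPKM in the lean and 250, 278, and 266 in the obese, and Atp5b at 726, 689, and 767 and at 681, 629, and 639. The medians were -0.24 and -0.13 in the unfed livers, or -0.35 and -0.13 without unfed obese replicate 1, and RPKM values are relative to all reads of a library.

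In the remaining lists calls are those with the fed groups alone, where 3.32% of all genes were higher and 2.98% lower. Of 22 major urinary protein genes, which growth hormone controls, 1 was higher, namely Mup21, at 92.6, 36.9, and 76.6 RPKM in the lean and 212, 320, and 262 in the obese (adjusted p = 0.114, and 0.0188 with the fed groups alone). Without 1 fed library 0 to 2 were higher, and in the fit of 4 groups 0 were. A log2 fold change above 0 was found in 21 of the 22, against 5947 of all 11434 genes. These genes are close relatives among which reads may have been split, so the 21 are not separate observations. Of 14 male-biased genes 2 were higher, and of 8 female-biased genes 1 was higher. Without 1 fed library 1 to 2 and 0 to 1 were higher, and 0 to 1 of each list were lower. Fn1, fibronectin, was the 1 gene of 16 of collagen and fibrosis that was called, at 159, 146, and 144 RPKM in the lean and 191, 224, and 200 in the obese (adjusted p = 0.0744, and 0.0248 with the fed groups alone). Without 1 fed library 0 to 1 of the 16 were called. Gnmt, the glycine methyltransferase that consumes methyl groups, was 1.79 times lower (adjusted p = 0.13, and 0.0165 with the fed groups alone), as 1 of 2 lower genes, beside 1 higher, among 15 of methyl metabolism. Without 1 fed library 0 to 3 of the 15 were lower and 1 higher. Of 23 lipoprotein genes 3 were higher, of 19 secreted hepatokines 4 were higher and 1 lower, of 41 genes of amino acid breakdown 2 were higher and 3 lower, and of 20 cell cycle genes 2 were lower. Without 1 fed library 0 to 2 lipoprotein, 2 to 3 hepatokine, and 0 to 1 amino acid breakdown genes were higher. Lower ones were then 0 to 1 lipoprotein, 0 to 1 hepatokine, 0 to 2 amino acid breakdown, and 0 to 2 cell cycle genes. Of 19 heat shock, 38 proteasome, 44 ribosome biogenesis, 8 urea cycle, 11 growth hormone, and 5 α-arrestin genes, 0 were called in either fit, with 8 higher or lower among the growth hormone, α-arrestin, heat shock, and urea cycle genes, 6 among the proteasome genes, and 11 among the ribosome biogenesis genes at an unadjusted p under 0.05 in limma. At that threshold 10.4% of all genes were higher and 9.47% lower. Apoe, the most abundant lipoprotein gene named here, was at 11082, 11406, and 10650 RPKM in the lean and 11312, 11314, and 12616 in the obese, which overlap.

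Among the other genes called in both fits, some were of low abundance, such as Shisa8, and some were not, such as Rcan1. Cib3, a calcium-binding protein gene, was at 5.93, 9.83, and 4.83 RPKM in the fed lean and 0.775, 0.631, and 0.467 in the fed obese mice (log2 fold change -2.66 ± 0.50, adjusted p = 0.0493). Rcan1, a regulator of calcineurin, was at 47.9, 44.8, and 56.3 RPKM and at 11.5, 17.0, and 28.02 (-1.46 ± 0.26, adjusted p = 0.0457). Shisa8 was at 0.0530 to 0.117 RPKM in the lean and 1.09 to 1.88 in the obese, and Hykk, a hydroxylysine kinase, at 6.42, 6.85, and 7.55 and at 23.4, 18.3, and 15.1 (1.37 ± 0.19, adjusted p = 0.0238). Tnnc1, Nat8, Hes6, and Zfp428 were lower, with log2 fold changes of -1.38, -1.29, -1.17, and -1.07. Mascrna, a short RNA cut from the Malat1 transcript, and Mir7024, a microRNA precursor, were listed at 0 in all fed lean mice and at 1.40, 3.03, and 3.49 RPKM and at 1.31, 0.944, and 2.44 in the fed obese mice, and such short features within longer transcripts are uncertain.

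The same genes were read in another set of mice, on chow and NRF, aged 10 weeks and of the strain C57BL/6, which the methods give as C57BL/6N. They were injected intraperitoneally with vehicle (PBS), dexamethasone (dex) at 1 mg/kg, or S961 30 minutes before food was given at ZT12, and fed livers were taken at ZT14. The labels give the S961 dose as 44 nM/mouse and the methods as 44 nmol/kg. S961, an antagonist of the insulin receptor, and dex, a GR agonist, were each compared with vehicle in fed mice (4 mice a group), and the comparisons share the vehicle mice. Of 371 genes higher in fed obese livers with the fed groups alone and tested there, 36 were higher with S961 (9.70%) and 2 lower, where 0.924% of all genes were higher and 0.942% lower. Of 338 lower genes, 8 were lower with S961 (2.37%) and 1 higher. With dex, 9 of the 371 were higher and 22 lower (5.93%), and 8 of the 338 were higher and 9 lower, where 1.01% of all genes were higher and 2.15% lower. The log2 fold change of Scd1 was 0.47 with S961 and 0.22 with dex, and that of Fasn -0.13 and -0.21, none of them called. Angptl4 was at 1.64 with S961 (adjusted p = 0.0056) and -0.05 with dex, Plin2 at 1.52 (0.001) and -0.94 (0.018), and Ehhadh at 1.32 (0.0054) and -0.15. Sqle and Insig1 were at -1.37 (0.0042) and -1.26 (0.002) with S961 and at -0.10 and -0.41 with dex. Of 22 cholesterol genes 6 were lower with S961, and of 16 genes of fatty acid synthesis 0 were lower and 1 higher.

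Peak lists of GR and FOXO1, which hold positions only and no level by diet, were joined to genes at 50 kb of the gene start in mm9. The study describes its concordant peaks of both factors as those of unfed mice at ZT14, and it reports less binding of both after feeding. A peak here is thus no measure of binding in fed livers of either diet. A GR peak lay near 72.2% of the genes higher with the fed groups alone, near 62.0% of the lower ones, and near 47.9% of all tested genes with a position, and a FOXO1 peak near 71.9%, 60.8%, and 50.9%. Near Angptl4 there were 3 GR and 4 FOXO1 peaks, near Insig2 6 and 3, near Cyp3a11 5 and 4, and near Scd1 3 and 2. Of 17 genes of peroxisomal and ω-oxidation 16 had a GR peak and 15 a FOXO1 peak, and of 22 cholesterol genes 14 and 11. The genes were not matched on expression level, whose part in these shares was not tested.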

How the data were processed

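Poly(A) RNA of mouse liver was sequenced, 1 mouse per library. Per the labels and the study's methods, the authors aligned reads to mm9 with STAR and deposited expression values as RPKM for 35707 RefSeq transcripts, and HOMER and DESeq2 are also named, without versions. Total read counts were not used here, and relative depth was read from ratios of values between libraries for transcripts at 0 in most of them. Here, 1 transcript was kept per symbol, genes under a mean of 0.5 RPKM over the 12 libraries were left out, and log2(RPKM + 0.5) was fitted with limma 3.58.1 (R 4.3.3, trend set, 8 residual degrees of freedom) with a term per group, which understates differences of low genes. Other steps used Python 3.11.15 with pandas 2.3.3 and numpy 2.4.6. The p-values were adjusted by Benjamini-Hochberg over all genes tested. The fit of the fed groups alone, in which the spread comes from those 6 libraries, is an alternative, and the one without unfed obese replicate 1 and the one with library weights were chosen after seeing the data. The script was tested on simulated data.

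Genes and the 45 lists were chosen with earlier results of these data known. Named genes are those the study names for this experiment, the 10 largest and 10 smallest log2 fold changes among called genes, up to 3 called members of each list in either direction or else its most abundant member, up to 5 genes a direction by the test of the meal dependence, and the regulators heading a list. Not all of them are described, some genes are not reported here, and Nsdhl, Alb, Hp, Acox2, Etnk2, and others were added after their values were seen. Mice were not paired by replicate number in the main fits. Correlations of same-numbered deviations ran from -0.201 to 0.215. Those of differently numbered libraries were not computed, so whether libraries of a number share handling cannot be told. The strand setting of the counting is not given in the sources used here, so overlapping genes on opposite strands cannot be told apart. Peak lists of GR and FOXO1, deposited by the authors, gave positions only, in mm9.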

Additional observations from a re-analysis of the deposited data

Results flagged for a closer look

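For 19 of the genes followed here, the diet difference in fed mice was not that in unfed mice by limma's test of the difference between the 2 (adjusted p under 0.05 over all genes, 4 groups in the fit). Mir7024, Mfsd2a, Angptl4, Them4, Lipg, Gadd45a, Rassf6, Inf2, Sh3bp2, and Cutal were among the genes with the smallest adjusted p in this same test. They were followed for that reason, some also for others, so their call here was fixed in advance. Among all tested genes the difference was called above 0 for 48 (0.420%) and below 0 for 37 (0.324%). The values that follow are that difference on the log2 scale, fed minus unfed. It was above 0 for Angptl4 (2.49), G6pc (2.56), Herpud1 (1.65), Igfbp1 (3.93), Lipg (2.01), Mascrna (4.53), Mfsd2a (3.16), Mir7024 (3.37), Tat (1.99), and Them4 (1.29), so that the obese livers were higher relative to lean when fed than when unfed. It was below 0 for Cutal (-1.08), Cyp7a1 (-1.82), Elovl1 (-1.11), Gadd45a (-2.31), Inf2 (-0.86), Mid1ip1 (-2.33), Rassf6 (-1.21), Sh3bp2 (-1.40), and Srebf1 (-2.33). Lipg, the endothelial lipase, was at 5.94, 4.34, and 6.46 RPKM in fed lean and 7.99, 9.77, and 7.70 in fed obese livers, and at 16.3, 18.6, and 15.2 and at 6.63, 6.63, and 4.51 in the unfed. Values of Mascrna and Mir7024 are uncertain, as short features within longer transcripts.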

How the results depend on the processing

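Against 33 higher and 24 lower genes, 4 and 4 were called in all without the filter, 20 and 15 without the trend, 23 and 15 with robust estimation, 9 and 2 with the replicate block, 380 and 341 with only the compared groups, and 519 and 440 with library weights. Leaving out 1 library gave 0 to 316 higher and 0 to 291 lower, both highest without unfed obese replicate 1. The 380 higher and 341 lower genes of the fed groups alone became 93 to 181 and 98 to 233 without 1 fed library. The 85 genes whose diet difference depended on the meal became 29 without the filter, 45 with the replicate block, and 29 to 150 without 1 library. The 592 genes called in unfed livers became 355 without the filter, 41 with only the compared groups, and 202 to 1338 without 1 library. The direction turned for genes near 0 that were not called: Arrdc3 was at -0.0444 with library weights and Cps1 at 0.0271 with quantile normalization. Without 1 library, log2 fold changes ran from -0.3137 to 0.4996 for Arrdc3, from -0.2879 to 0.0481 for Cirbp, from -0.1403 to 0.0707 for Dgat2, from -0.0582 to 0.1274 for Hpd, from -0.1058 to 0.7836 for Igfbp1, from -0.1774 to 0.0457 for Irs1, from -0.0371 to 0.4919 for Irs2, and from -0.117 to 0.1149 for Tdo2. Of 1056 list medians under these alternatives, 1009 moved by less than the spread between replicates. Pseudocounts of 0.1 and 1, scaling, and all RefSeq IDs kept both counts within 1.5 times. The cause was not tested, and 3 mice a group and unequal depth limit every call.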
